A study of Mus musculus with 80 samples.

Results

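Skeletal muscle turns an action potential into force through excitation contraction coupling. A voltage sensor in the transverse tubule membrane (the dihydropyridine receptor, a calcium channel of several subunits) pulls open the ryanodine receptor of the sarcoplasmic reticulum, calcium floods the fibre, and pumps and buffers then clear it. In fast fibres, which make up most of the tibialis anterior, clearance relies on a fast-type reticulum pump, on calsequestrin inside the reticulum and on parvalbumin in the cytosol. Described here are 9 genes of this machinery, chosen by gene symbol, of the 10842 genes in the deposited table: Ryr1 (the release channel), Cacna1s, Cacnb1, Cacng1 and Cacna2d1 (the pore, beta, gamma and alpha2-delta subunits of the voltage sensor), Jph1 (junctophilin, which tethers the reticulum to the transverse tubule), Atp2a1 (the fast-fibre calcium pump), Casq1 (the fast-fibre calsequestrin) and Pvalb (parvalbumin). All 9 were present.

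Expression was measured on 8 micron cross sections of flash-frozen tibialis anterior with the NanoString GeoMx mouse whole transcriptome assay (light frees the barcodes of bound probes within an outlined area, and these are then counted). There were 6 control mice and 6 mice with the label tauopathy, which expressed P301L tau, a mutant form of the microtubule protein tau found in a familial dementia. Both groups carry the labels genotype WT and strain C57Bl/6, and the name of the deposited analysis speaks of tau and AAV8, a viral vector. The sources used here do not name the cells that the vector reached, the promoter that drove tau, what the control animals received or the ages of the mice. The 80 regions were labelled normal fibres, central nuclei (fibres whose nuclei lie in the centre, a mark of regenerated fibres), nerve bundle or surrounding artery. Central nuclei were sampled in all animals but tau animal T30. All regions carry the cell type label myofibers, and the sources used here do not say how they were chosen. The labels give 3 female and 3 male controls and 4 female and 2 male tau animals.

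Each of 3 slides held 2 control and 2 tau animals. Total counts per region ran from 145487 to 3356106, with medians of 552840, 2248737 and 1292899 on slides 1, 2 and 3, and the mean of the negative probe, which targets no mouse transcript, was 25.8, 46.1 and 34.8. In normal fibres the log2 total count of tau animals exceeded that of controls by 1.01 and the log2 negative probe value by 0.15 (means over slides), and in central nuclei by 0.84 and 0.29. Around arteries the excess was 0.69 and 0.22. It was largest in nerve bundle, at 1.15 and 0.33. Fibre genes were abundant in every region type: the summed signal of 9 fibre reference genes (such as Acta1 and Ckm) had group medians of 120700 to 164900, against 257.7 to 349.9 for 9 times the negative probe value. The artery label was matched by the smooth muscle actin gene Acta2, higher around arteries than in normal fibres by 1.14 on the log2 scale (adjusted p = 0.0012, limma). Smooth muscle signal was not particular to arteries. The summed smooth muscle markers had control medians of 440.8 around arteries, 460.5 in nerve bundle and 280.8 in normal fibres. In tau animals these were 382.5, 327.4 and 300.6. The embryonic myosin gene Myh3 differed by 0.14 between central nuclei and normal fibres without passing (adjusted p = 1.0, limma).

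The promoter windows of 4 of the genes are shown because these genes are used most below. In normal fibres Ryr1, Casq1 and Atp2a1 were lower in both tau animals than in both controls of each slide. Pvalb and Cacng1 were higher in this way in nerve bundle. The shares of all genes were 1.46% and 3.58%, and those of the 500 genes of highest mean 9.6% and 7.2%. None of these differences passed (limma adjusted p of 0.17 to 0.65). Each window holds 250 bases before and 50 after a RefSeq transcription start (GRCm38.p6, the mm10 build) and is written from 5′ to 3′ on the gene's strand. Capitals mark an E-box (CANNTG, the site type of MyoD-family factors), the MEF2 motif or the MCAT motif (CATTCC, the site type of TEAD factors), searched on both strands. Ryr1 is at chr7:29125102-29125401 (minus strand), Casq1 at chr1:172219846-172220145 (minus), Atp2a1 at chr7:126463024-126463323 (minus) and Pvalb, at the first of its 2 listed starts, at chr15:78206351-78206650 (minus).
Ryr1: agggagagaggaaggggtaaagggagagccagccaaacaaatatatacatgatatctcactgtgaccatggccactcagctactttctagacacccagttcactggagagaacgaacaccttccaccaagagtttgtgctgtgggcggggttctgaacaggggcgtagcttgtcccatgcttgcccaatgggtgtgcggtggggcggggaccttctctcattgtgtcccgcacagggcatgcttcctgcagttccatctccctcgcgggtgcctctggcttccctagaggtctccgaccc
Casq1: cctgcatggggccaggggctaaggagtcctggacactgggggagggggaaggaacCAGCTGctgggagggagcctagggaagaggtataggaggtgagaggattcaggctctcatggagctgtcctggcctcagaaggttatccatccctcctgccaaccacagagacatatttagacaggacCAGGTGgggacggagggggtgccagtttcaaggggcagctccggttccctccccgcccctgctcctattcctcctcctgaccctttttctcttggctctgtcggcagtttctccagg
Atp2a1: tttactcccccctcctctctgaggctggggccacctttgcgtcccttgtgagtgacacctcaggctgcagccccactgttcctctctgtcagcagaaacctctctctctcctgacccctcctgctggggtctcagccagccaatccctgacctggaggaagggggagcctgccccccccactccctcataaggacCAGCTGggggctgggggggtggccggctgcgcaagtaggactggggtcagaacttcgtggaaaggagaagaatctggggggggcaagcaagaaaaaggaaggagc
Pvalb: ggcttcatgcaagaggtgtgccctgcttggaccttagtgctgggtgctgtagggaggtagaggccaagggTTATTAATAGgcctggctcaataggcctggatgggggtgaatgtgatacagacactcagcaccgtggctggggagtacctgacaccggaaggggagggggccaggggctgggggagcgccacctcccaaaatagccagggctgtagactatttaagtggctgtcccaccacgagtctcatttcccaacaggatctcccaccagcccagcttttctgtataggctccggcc
No E-box letters occur in the Ryr1 window. Casq1 held E-boxes 195 and 67 bases upstream of its start and Atp2a1 held 1 at 55 bases upstream, while Pvalb held the MEF2 motif 180 bases upstream. Of 9 windows listed for 7 of the genes (Jph1 and Cacng1 are not in the table), 5 held an E-box, 1 the MEF2 motif and 1 (Cacna1s, 130 bases upstream) the MCAT motif. The same motifs occur in 72.3%, 3.19% and 14.7% of the 32851 windows of that length. TATAAA and the CArG motif, present in 13.6% and 1.63% of all windows, were in none of the 9. No matches of different motifs overlapped.

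The 9 genes lay on 5 chromosomes and spanned a wide range of signal. Values are upper-quartile (Q3) normalised probe signals on a linear scale, and signals of different probes are not compared as molecule numbers. Atp2a1 (chromosome 7, 126445858 to 126463103) had a median over regions of 26641, which is 757 times the negative probe, and Pvalb (chromosome 15, 78191112 to 78206400) of 5707, or 171 times. Casq1 (chromosome 1, 172209894 to 172219895) stood at a median of 1523 and Ryr1 (chromosome 7, 29003340 to 29125179) at 1416, or 48.4 and 36.8 times the negative probe. Cacna1s (chromosome 1, 136052806 to 136119822) and Jph1 (chromosome 1, 16942104 to 17097922) followed at 15.9 and 14.4 times the negative probe. Cacnb1 (chromosome 11, 98001508 to 98023034) and Cacng1 (chromosome 11, 107703218 to 107716476) reached 4.63 and 4.30 times. Cacna2d1 (chromosome 5, 15934264 to 16374511) was at background: its median was 0.998 times the negative probe. It passed the filter on low values, 1.5 times the negative probe in 10% of regions, with 8 of 80 regions, of which 7 were control and 1 tau. The other 8 genes reached 1.5 times the negative probe in 96.25% to 100% of regions.

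**Figure D1:**
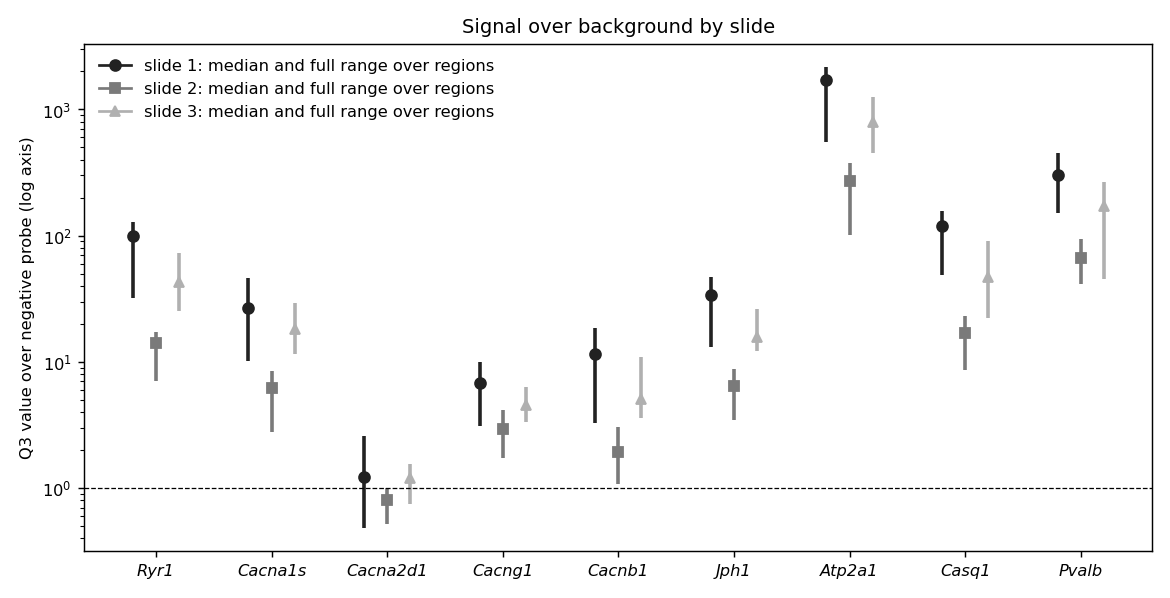
Q3 value divided by the negative probe value of the same region (log axis) for each gene, by slide. Points are medians and bars the full range over 27, 25 and 28 regions on slides 1, 2 and 3, and the dashed line marks the background. On slide 2 each gene has its lowest median, and Cacna2d1 straddles the line on slides 1 and 3.

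Levels of 7 of the genes differed widely between slides. Over all region types the mean log2 level of Casq1 was 11.37 on slide 1, 9.50 on slide 2 and 10.67 on slide 3, a range of 1.87. Ryr1 stood at 11.03, 9.24 and 10.53, a range of 1.79, and Atp2a1 at 15.16, 13.44 and 14.72, a range of 1.72. Cacnb1, Jph1, Pvalb and Cacna1s ranged over 1.49, 1.43, 1.33 and 1.30, but Cacng1 over only 0.29 and Cacna2d1 over 0.31. Without Q3 scaling, the median CPM value (counts relative to the library total) of Ryr1 was 1800 on slide 1 and 723 on slide 2, a ratio of 2.49. That of Cacng1 lay the other way, at 127 and 151. Regions of 1 animal and type had a pooled SD of log2 values of 0.13 for Ryr1, 0.15 for Atp2a1, 0.16 for Jph1, 0.21 for Casq1, 0.24 for Cacng1, 0.31 for Cacna2d1 and 0.37 for Pvalb. For Cacng1 and Cacna2d1 this spread was about as large as the range over slides. Slide is therefore a term of each comparison of tau with control below.

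**Figure D2:**
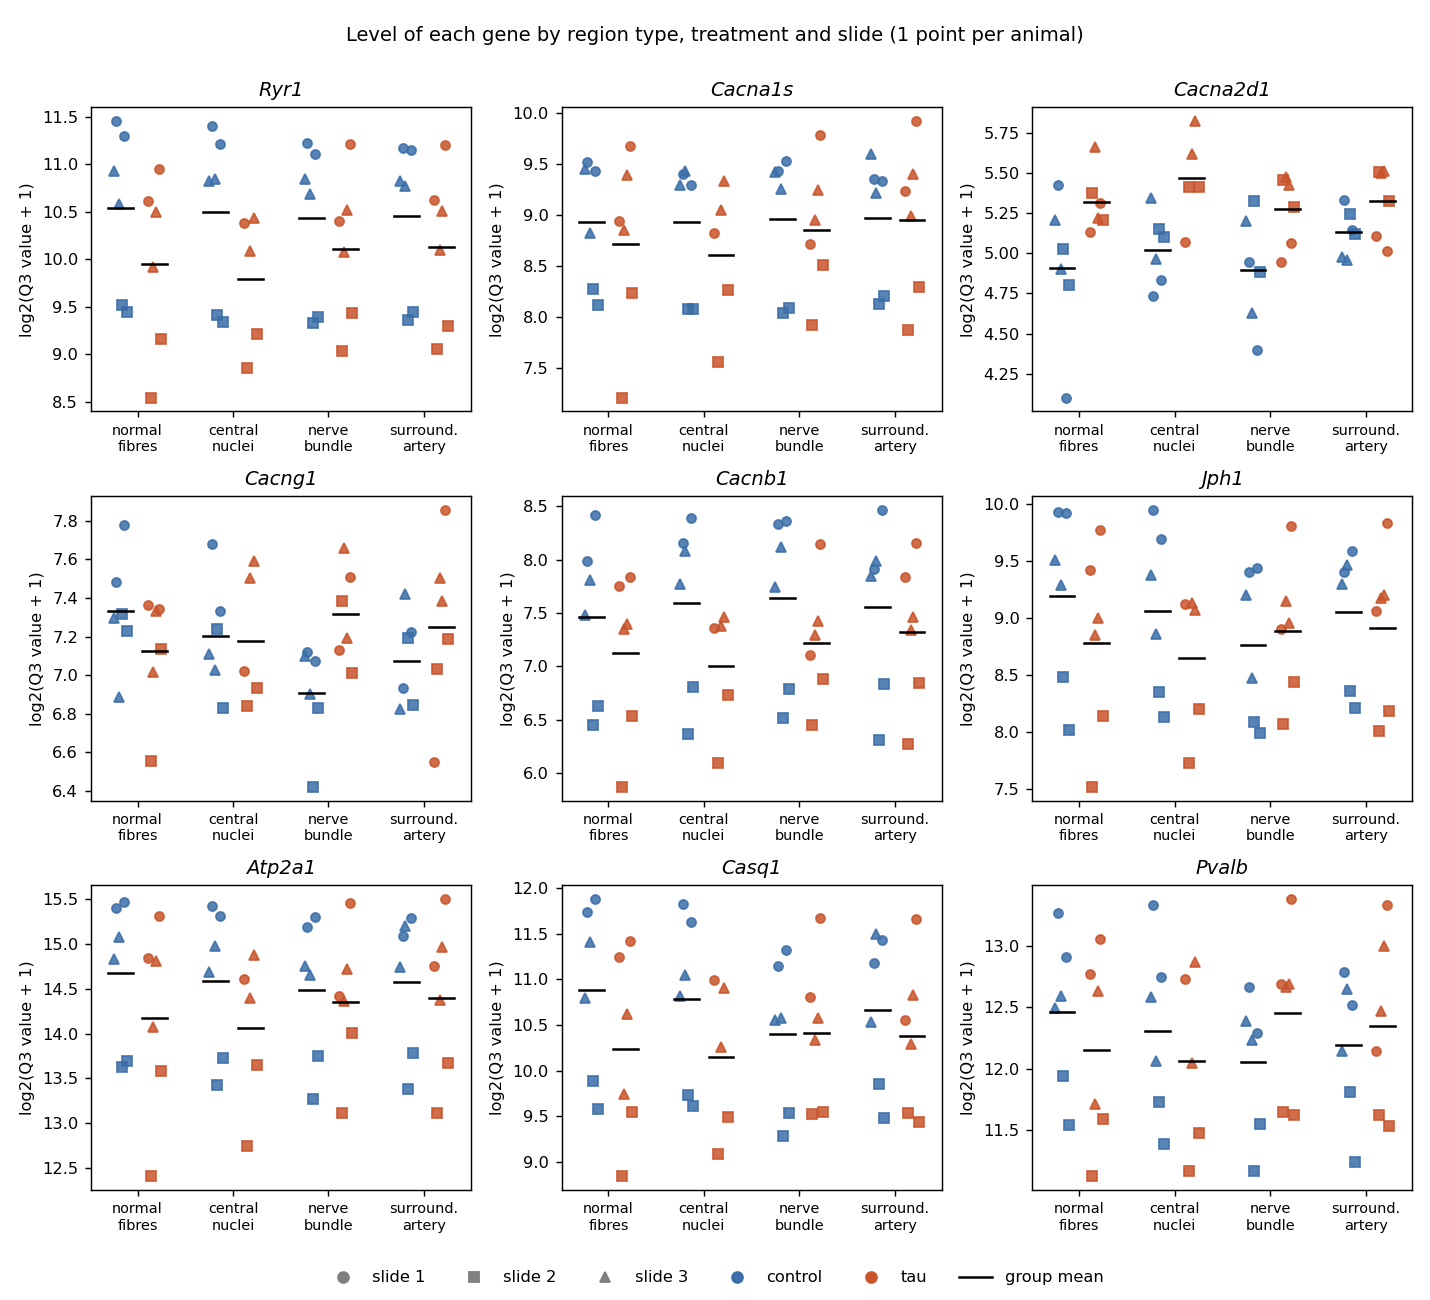
Level of each gene as log2(Q3 value + 1), 1 point per animal (mean over its regions of a type), for 6 control and 6 tau animals (5 tau in central nuclei) in 4 region types. Symbols give the slide and black bars the group mean. Squares (slide 2) form the lowest band for 7 of the genes, and Cacng1 and Cacna2d1 show no such band.

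In normal fibres none of the 9 genes passed the test between tau and control animals. Of the 9 estimates 8 lay below 0, with a median log2 difference of -0.34 against 0.06 over all 10188 genes tested, -0.11 over the 500 genes of highest mean and -0.35 over the 9 fibre reference genes. Relative to the fibre reference genes only 3 of the 9 lay below 0, with a median of 0.08. That scaling moved the median of all genes from 0.06 to 0.48. After quantile normalisation, or with the negative probe as a covariate, 7 of 9 lay below 0. Of the 10188 genes, limma called 0 (0%) at an adjusted p under 0.05, with 1385 at an unadjusted p under 0.05, of which 5 were among the 9. The edgeR quasi-likelihood test on recovered reads called 0 as well. In such areas of tissue, fewer fibres and less RNA per fibre cannot be told apart.

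Ryr1, the release channel, had log2 values in normal fibres of 11.46 and 11.30 in the slide 1 controls against 10.61 and 10.95 in the tau animals. On slide 2 they were 9.51 and 9.45 against 8.54 and 9.16, and on slide 3 10.93 and 10.58 against 9.92 and 10.49. The tau animals thus lay below the controls of their slide on all 3 slides, though the pooled groups overlapped. The group means were 10.54 ± 0.87 in controls and 9.95 ± 0.93 in tau animals (SD, n = 6 each), which are 1485 and 986 on the linear scale. The fitted log2 difference was -0.59 ± 0.17 (SE, 0.664-fold, 95% interval -0.94 to -0.24, limma adjusted p = 0.17). It was nearly equal on the slides, at -0.60, -0.63 and -0.55. With labelled sex added beside slide it passed (-0.65, limma adjusted p = 0.040), a fit in which 51 genes were called. That call rests on sex labels that differ from the series' design text, which gives 3 animals of each sex in both groups. Earlier results on these data also found that Y-linked genes went against the sex labels in controls. Labelled sex was left out of the main fit for that reason. Relative to the fibre reference genes it was -0.17, and with the negative probe as a covariate -0.41.

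Among the voltage sensor subunits, the pore gene Cacna1s differed by -0.22 ± 0.18 in normal fibres (interval -0.60 to 0.16), with controls at 8.12 to 9.52 (median 9.13) and tau animals at 7.21 to 9.68 (median 8.90). The groups overlapped over nearly their whole range. Cacnb1, the beta subunit, ran from 6.45 to 8.42 (median 7.65) in controls and from 5.87 to 7.84 (median 7.37) in tau animals. Its difference was -0.34 ± 0.12 (interval -0.60 to -0.08, limma adjusted p = 0.26), and -0.41, -0.34 and -0.27 on the slides. Relative to the fibre reference genes it was 0.08. Cacng1, the gamma subunit, differed by -0.21 ± 0.13 (interval -0.48 to 0.06). Cacna2d1 was the only one of the 9 above 0, at 0.41 ± 0.18 (interval 0.03 to 0.78, limma adjusted p = 0.34). It passed relative to the fibre reference genes (0.83, limma adjusted p = 0.021), a scaling under which 3240 of the 10188 genes were called. With the negative probe as a covariate the Cacna2d1 difference was 0.50, and without control animal C30 0.235. Its values were at the background level.

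Jph1, the membrane tether, ran from 8.02 to 9.93 (median 9.40) in control normal fibres and from 7.52 to 9.78 (median 8.93) in tau ones. Its difference was -0.41 ± 0.14 (interval -0.70 to -0.12, limma adjusted p = 0.23), with -0.33, -0.42 and -0.47 on the slides, and 0.01 relative to the fibre reference genes. Casq1, the calcium store protein, had the estimate farthest from 0, -0.65 ± 0.20 (0.639-fold, interval -1.06 to -0.23, limma adjusted p = 0.21). On slide 1 its controls were at 11.74 and 11.88 and its tau animals at 11.25 and 11.42. On slide 2 the values were 9.89 and 9.58 against 8.85 and 9.55, and on slide 3 10.80 and 11.41 against 9.74 and 10.62. On each slide both tau animals were below both controls. Relative to the fibre reference genes the difference was -0.22, and with the negative probe as a covariate -0.59.

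Atp2a1, the reticulum pump, also lay lower in both tau animals than in both controls of each slide. Its controls were at 15.40 and 15.46, 13.63 and 13.70, and 14.83 and 15.08 on slides 1, 2 and 3, and its tau animals at 14.84 and 15.32, 12.41 and 13.58, and 14.08 and 14.82. The difference was -0.51 ± 0.46 (interval -1.46 to 0.44, limma adjusted p = 0.65), the widest interval of the 9. It was -0.09 relative to the fibre reference genes and turned to 0.09 after quantile normalisation. Pvalb, the cytosolic buffer, differed by -0.31 ± 0.26 (interval -0.85 to 0.23), with controls at 11.54 to 13.27 (median 12.54) and tau animals at 11.12 to 13.06 (median 12.17). Ryr1, Casq1 and Atp2a1 are the 3 of 9 genes that lay lower in tau without overlap on each slide in normal fibres, where 1.46% of all genes tested and 9.6% of the 500 of highest mean did so. None lay higher on each slide, against 2.07% of all genes.

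In central nuclei, 6 control and 5 tau animals were compared, with 1 tau animal on slide 1. Ryr1 differed by -0.57 ± 0.15 (interval -0.88 to -0.26, limma adjusted p = 0.074) and its controls lay at 9.34 to 11.40 (median 10.83). The tau values were 10.39 on slide 1, 8.85 and 9.21 on slide 2 and 10.09 and 10.43 on slide 3, each below the controls of its slide. Cacnb1 differed by -0.48 ± 0.15 (limma adjusted p = 0.095), Casq1 by -0.46 ± 0.16 (adjusted p = 0.14) and Cacna2d1 by 0.39 ± 0.12 (adjusted p = 0.11). Without tau animal T7 of slide 2, Ryr1 (-0.66, limma adjusted p = 0.022) and Cacnb1 (-0.62, adjusted p = 0.020) passed. Fits without 1 animal called 0 to 373 of all genes here. Ryr1 and Cacnb1 also passed under a stricter filter that leaves 3128 genes (adjusted p = 0.032 and 0.042, limma). That filter called 448 of the 3128 genes. A central nuclei region of T7 carries the word FLAG in its name. Without that region alone, 8 of the 9 genes lay below 0, with a median of -0.27 against -0.28 with it. With the negative probe as a covariate Ryr1 was at -0.35, Cacnb1 at -0.03 and Cacna2d1 at 0.17. After quantile normalisation Ryr1 was at -0.23 and Casq1 at -0.19, and relative to the fibre reference genes Casq1 was at -0.22. Of the 9, 7 lay below 0 and 0 were called, against 0% of all genes with limma, where 2098 genes had an unadjusted p under 0.05. The edgeR test called 195 genes, none of them among the 9. Ryr1 lay lower without overlap on each slide (3.14% of all genes and 17% of the 500 of highest mean did) and Cacna2d1 higher (5.97% of all genes).

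**Figure D3:**
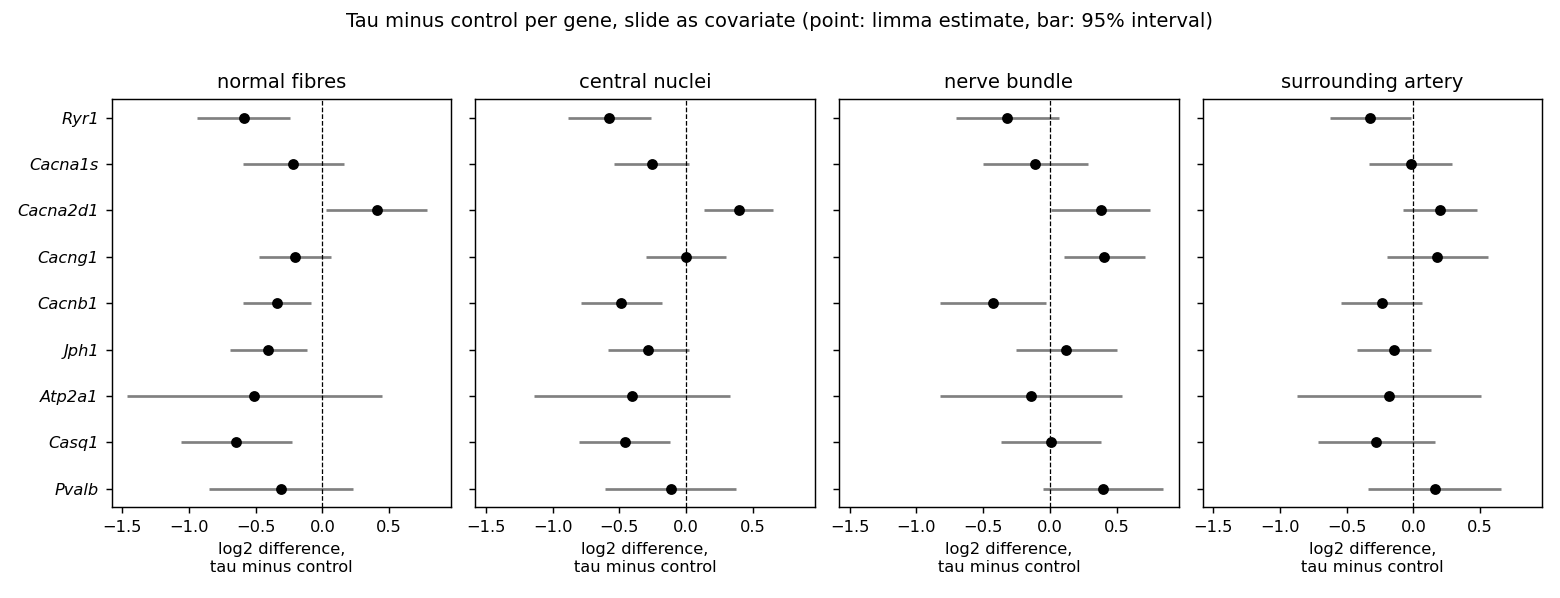
Log2 difference of tau minus control for each gene in the 4 region types, with slide as a covariate. Points are limma estimates and bars 95% intervals, over 12 animals (11 in central nuclei), and none passed an adjusted p of 0.05. In normal fibres the bars of Ryr1, Cacnb1, Jph1 and Casq1 lie below 0, of which those of Cacnb1 and Jph1 turn to 0.08 and 0.01 relative to fibre reference genes. In nerve bundle those of Cacng1 and Cacna2d1 lie above 0 and that of Cacnb1 below, of which Cacna2d1 goes to 0.02 with the negative probe subtracted and Cacnb1 turns to 0.09 with it as a covariate.

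In nerve bundle regions 5 of the 9 estimates were above 0, with a median of 0.01 against 0.11 over all genes. Of the 9, 4 lay above 0 relative to the fibre reference genes (median -0.01), and with the negative probe as a covariate 8 of 9 (median 0.28). Cacng1 ran from 6.42 to 7.12 (median 6.99) in controls and from 7.01 to 7.66 (median 7.29) in tau animals. Its difference was 0.41 ± 0.14 (interval 0.10 to 0.71, limma adjusted p = 0.35), with 0.22, 0.57 and 0.43 on the slides. Pvalb had 12.67 and 12.29 in the slide 1 controls against 12.69 and 13.38 in the tau animals. On slide 2 it had 11.17 and 11.55 against 11.64 and 11.62, and on slide 3 12.39 and 12.23 against 12.66 and 12.69. The tau animals were above the controls of their slide throughout, and the fitted difference was 0.40 ± 0.21 (interval -0.05 to 0.85, limma adjusted p = 0.43). Cacng1 and Pvalb were the 2 of 9 genes higher in tau without overlap on each slide (3.58% of all genes and 7.2% of the 500 of highest mean). None was lower (0.226% and 0.6%). On slide 1 the gap was small for both, with Cacng1 at 7.128 in tau animal T13 against 7.122 in control C2. Cacnb1 differed by -0.43 ± 0.19 (interval -0.82 to -0.03), by 0.09 with the negative probe as a covariate and by -0.26 without tau animal T13. Ryr1 differed by -0.32 ± 0.18, Casq1 by 0.01 ± 0.18 and Jph1 by 0.12 ± 0.18. No gene of the 9 passed, against 0% of all genes (1277 at an unadjusted p under 0.05, edgeR 0).

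Around arteries 6 of the 9 estimates lay below 0, with a median of -0.14 against 0.07 over all genes. Ryr1 differed by -0.32 ± 0.14 (interval -0.63 to -0.02, limma adjusted p = 0.38), with controls at 9.36 to 11.17 (median 10.80) and tau animals at 9.06 to 11.20 (median 10.30). The other 8 intervals included 0, from Casq1 at -0.28 ± 0.21 to Cacna2d1 at 0.20 ± 0.13. None passed, against 0% of all genes (1243 at an unadjusted p under 0.05, edgeR 0), and none lay apart on each slide in either direction, against 0.559% of genes lower and 2.74% higher. Averaged over the 3 region types other than central nuclei, Ryr1 differed by -0.41 ± 0.14 (adjusted p = 0.15), Cacnb1 by -0.33 ± 0.13 (0.17) and Cacna2d1 by 0.33 ± 0.12 (0.16). Of the 9, 0 passed here, against 0% of all genes (limma, 2021 at an unadjusted p under 0.05, edgeR 0). Without T7 Cacnb1 passed, at -0.43 (adjusted p = 0.043, limma), where fits without 1 animal called 0 to 372 of all genes. With the negative probe as a covariate Ryr1 was at -0.15 and Cacnb1 at -0.12, and 3 of the 9 lay below 0 (median 0.05) against 6 of 9 without it.

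Whether the region types differ in these genes was asked within animals. These estimates average over controls and tau animals, whose differences in nerve bundle lay on opposite sides of 0 for some genes, as given further on by treatment. Nerve bundle minus normal fibres gave -0.16 ± 0.09 for Jph1, -0.15 ± 0.10 for Casq1, 0.14 ± 0.09 for Cacnb1 and estimates between -0.12 and 0.08 for the other 6 genes. All 9 intervals included 0 and lay between -0.41 and 0.39. No gene of the 9 passed, against 0.0196% of all genes (2 genes). Surrounding artery minus normal fibres gave 0.15 ± 0.05 for Cacnb1 and 0.14 ± 0.06 for Cacna1s (limma adjusted p = 0.20 and 0.27), the only intervals above 0. None of the 9 passed, against 0.736% of all genes (75 genes, of which 73 were higher). Central nuclei minus normal fibres ran from -0.03 for Jph1 to 0.13 for Cacna2d1 with intervals between -0.27 and 0.36, and 0 of the 9 and 0% of all genes passed (limma, 240 at an unadjusted p under 0.05, edgeR 0). Nerve bundle minus surrounding artery was below 0 for all 9 genes, from -0.16 for Jph1 to -0.01 for Cacnb1. The fibre reference genes were below 0 in 8 of 9, and relative to them 4 of the 9 genes were (median 0.003). With 1 region per animal and type 6 of 9 were below 0. None passed, against 0% (limma, 371 at an unadjusted p under 0.05, edgeR 0).

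The order of the 4 region types was not the same in the treatment groups, though neighbours in it did not differ beyond the spread between animals. In controls, Ryr1, Cacng1, Jph1, Atp2a1, Casq1 and Pvalb all had their highest mean in normal fibres and their lowest in nerve bundle. Cacnb1 went the other way, with its highest control mean in nerve bundle and its lowest in normal fibres. Cacna1s and Cacna2d1 were highest around arteries in controls, and lowest in central nuclei and nerve bundle, respectively. Casq1 went from 10.88 ± 0.97 in control normal fibres through 10.78 ± 0.93 in central nuclei and 10.66 ± 0.85 around arteries to 10.40 ± 0.83 in nerve bundle (SD, n = 6). In tau animals it was 10.24 ± 1.02, 10.15 ± 0.845, 10.38 ± 0.835 and 10.41 ± 0.814 in that order (n = 5 in central nuclei). Pvalb went from 12.46 ± 0.63 in control normal fibres to 12.05 ± 0.57 in nerve bundle, and in tau animals from 12.15 ± 0.78 to 12.45 ± 0.69.

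Within single animals this contrast was sharper, since the slide drops out. Casq1 was lower in nerve bundle than in normal fibres in 6 of 6 controls, by -0.83 to -0.05 (median -0.58), and in 3 of 6 tau animals, which ran from -0.44 to 0.68 (median 0.13). Jph1 was lower in 6 of 6 controls, from -0.81 to -0.03 (median -0.44), and in 2 of 6 tau animals, from -0.52 to 0.55 (median 0.16). Among controls, the lowest differences of Casq1 and Jph1 were both those of animal C20. Its only nerve bundle region had the lowest total count of all 80 regions, 145487. Pvalb was lower in 5 of 6 controls, from -0.77 to 0.005 (median -0.48), and higher in 5 of 6 tau animals, from -0.08 to 0.96 (median 0.19). Cacng1 was lower in 5 of 6 controls (median -0.38) and in 3 of 6 tau animals (median 0.02). Cacnb1, by contrast, was higher in 5 of 6 controls (median 0.212) and in 4 of 6 tau animals (median 0.165). The groups overlapped for each of these genes. The test of the difference between treatments gave 0.71 ± 0.26 for Pvalb (interval 0.17 to 1.24), 0.66 ± 0.21 for Casq1 (0.22 to 1.10), 0.61 ± 0.20 for Cacng1 (0.20 to 1.03) and 0.53 ± 0.18 for Jph1 (0.16 to 0.90). All had a limma adjusted p of 0.75, and relative to the fibre reference genes they were 0.27, 0.21, 0.17 and 0.09. Of the 9 genes 0 passed, against 0% of all genes (649 at an unadjusted p under 0.05, edgeR 0).

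**Figure D4:**
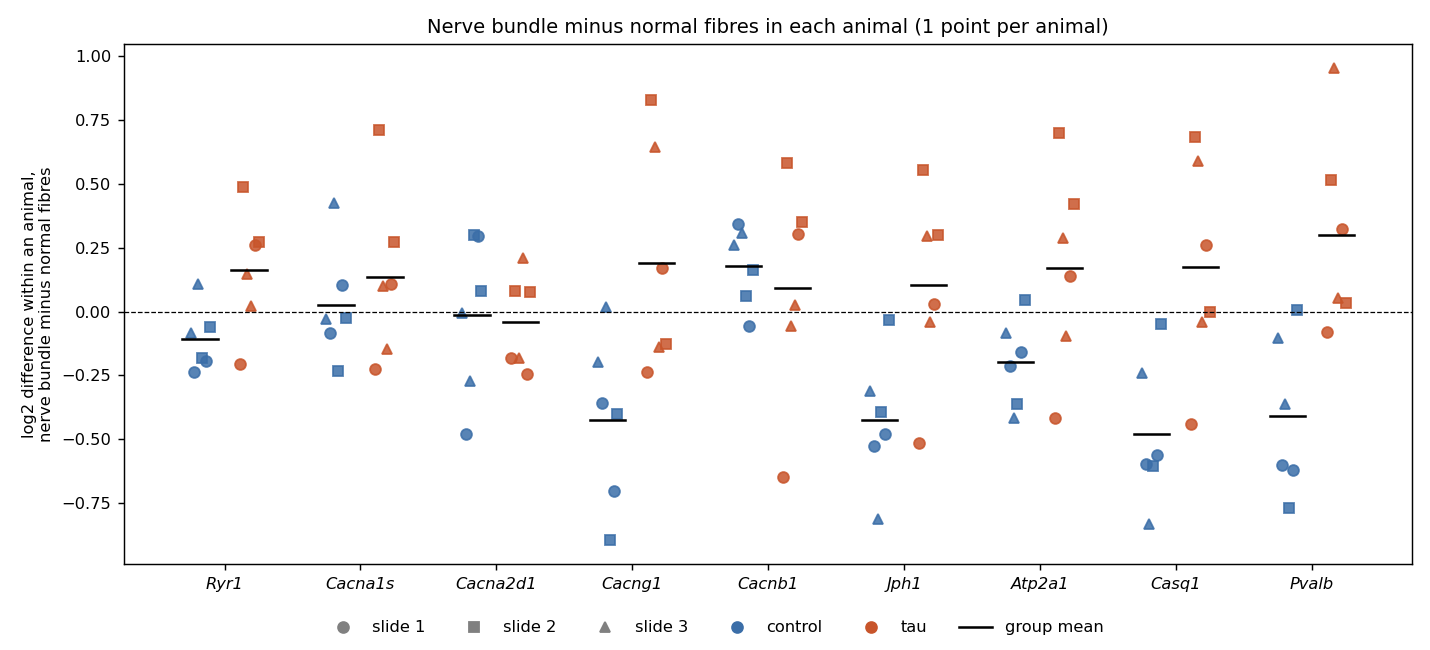
Log2 difference of nerve bundle minus normal fibres within each of 12 animals, per gene. Each point is 1 animal, symbols give the slide, and black bars are the means of 6 animals. For Casq1 and Jph1 all 6 control points lie below 0, and the tau points lie on both sides of it.

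The matching contrast for surrounding artery gave 0.47 ± 0.21 for Pvalb and 0.27 ± 0.12 for Ryr1, with intervals above 0 (limma adjusted p = 0.83). Ryr1 was higher around arteries than in normal fibres in 6 of 6 tau animals (0.006 to 0.52) and in 1 of 6 controls (-0.28 to 0.20). Relative to the fibre reference genes this estimate for Ryr1 turned to -0.14. For central nuclei all 9 intervals included 0, with 8 estimates above 0. In both contrasts 0 of the 9 passed, against 0% of all genes (limma, 594 and 318 at an unadjusted p under 0.05, edgeR 0).

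How the genes vary together was described over 47 means of an animal and region type, after the mean of each slide was removed. These points share animals and slides, so r is a description. The 28 pairs that leave out Cacna2d1 all had r above 0, from 0.004 (Cacnb1 with Pvalb) to 0.83 (Ryr1 with Atp2a1), with a median of 0.615. Ryr1, Cacna1s, Cacnb1 and Atp2a1 went together, with r of 0.64 to 0.83. Casq1 went with Atp2a1 (0.79), Ryr1 (0.74) and Jph1 (0.71), and Jph1 with Atp2a1 (0.69) and Ryr1 (0.66). Pvalb went with Cacng1 (0.70) and Casq1 (0.66). Cacna2d1 ran against Cacnb1 (-0.53) and Ryr1 (-0.45). The genes also differed in how they went with the background: r with the log2 negative probe was -0.75 for Ryr1, -0.72 for Cacnb1 and -0.64 for Cacna1s, but 0.14 for Cacng1 and 0.0001 for Pvalb. With the negative probe subtracted in place of used as a covariate, Cacnb1 in normal fibres differed by -0.87 and Cacna2d1 in nerve bundle by 0.02.

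**Figure D5:**
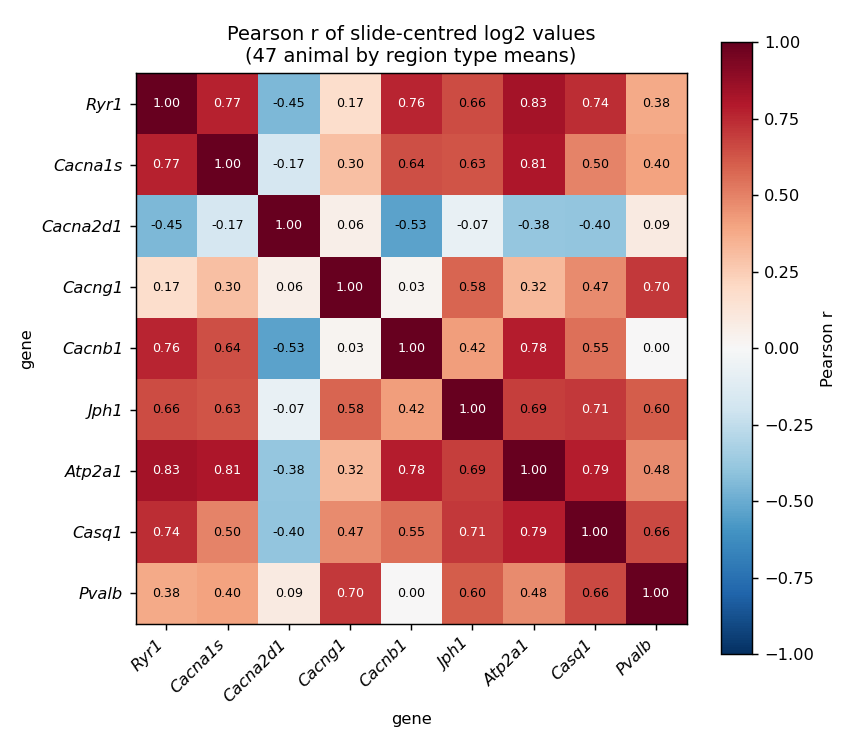
Pearson r between the 9 genes over 47 animal by region type means of log2 values, each slide centred on its mean. Red cells are positive and blue cells negative. Apart from Cacna2d1 every pair is above 0, from 0.004 to 0.83.

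The genes outside the 9 whose pattern was most like each of them are given by r over the same 47 points. Ryr1 was nearest to Pde4dip (r = 0.96), Kif1c (0.95) and Neb (0.95, nebulin of the thin filament). Atp2a1 was nearest to Ckm (0.92, muscle creatine kinase), Myoz1 (0.91) and Tnnt3 (0.91, fast troponin T), and Casq1 to Capza2 (0.90), Myh4 (0.90, a fast myosin heavy chain) and Ampd1 (0.89). Pvalb and Cacng1 shared their nearest genes: Mybpc2 (0.93 and 0.78), the fast myosin-binding protein, and Actn3 (0.90 and 0.79), the fast-fibre actinin, with Smtnl2 (0.80) and Hoxc10 (0.70) as the next. Cacna1s was nearest to Adssl1 (0.90), Zfp106 (0.89) and Eif4a2 (0.89). Cacnb1 was nearest to Nr1d2 (0.93), Fxyd1 (0.92) and Mrpl42 (0.90), and Jph1 to Atl2 (0.91), Pygm (0.84, muscle glycogen phosphorylase) and Mypn (0.82). Cacna2d1, at background, had its highest r with Rxrb (0.73), Polr2l (0.72) and Gpx3 (0.72).

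A wider list of 76 genes of coupling and calcium handling had 60 members in the table, all of which passed the filter. In normal fibres 0 of these 60 passed, 31 estimates lay below 0 and 29 above, and the median was -0.004 against 0.06 over all genes. In central nuclei 0 passed, 31 lay below 0 and the median was -0.02 against 0.08. In nerve bundle and around arteries 0 passed, with 23 and 25 below 0. In normal fibres 4 of the 60 lay lower in tau without overlap on each slide (1.46% of all genes and 9.6% of the 500 of highest mean did) and 0 higher (2.07% of all genes). These 4, named after their values were seen, were Trdn (triadin, which anchors calsequestrin to the release channel), Camk2a (a calcium/calmodulin kinase), Srl (sarcalumenin, a calcium-binding protein of the reticulum) and Calm2 (calmodulin). Their differences were -0.64 ± 0.16, -0.49 ± 0.13, -0.45 ± 0.16 and -0.38 ± 0.12 (limma adjusted p of 0.15 to 0.25). Trdn, Camk2a and Srl also did so in central nuclei, at -0.53 ± 0.14, -0.47 ± 0.12 and -0.57 ± 0.13, in regions of the same animals.

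Markers of other fibre types and cells were read beside these values. In normal fibres the 9 fibre reference genes were all below 0 between tau and control, with a median of -0.35, and the 9 tested slow-fibre genes all above 0, with a median of 0.36, and none of either list passed. The summed slow-fibre signal ran from 316.4 to 716 in controls and from 382.4 to 1382 in tau animals, against medians of 326.2 and 375.8 for the negative probe value times the number of genes. The summed fast-fibre signal ran from 33420 to 135700 in controls and from 18250 to 110100 in tau animals. Summed markers of fibroblasts ran from 405.5 to 673.8 and from 475.7 to 592.6, and those of macrophages from 137 to 229.6 and from 132.9 to 242.8, near their background of 163.1 and 187.9. In nerve bundle 6 of the 9 slow-fibre genes lay above 0 (median 0.69) and the 5 tested smooth muscle genes all below 0 (median -0.24), and none passed. The slow-fibre sums ran there from 419.3 to 600.4 in controls (median 513.9) and from 348.3 to 2241 in tau animals (median 487.6). Their background had medians of 286.3 and 385.2. Smooth muscle sums ran from 269.7 to 632.9 and from 283 to 352.9. The part of fibre type or of other cells in the differences of the 9 genes was not tested.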

How the data were processed

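The deposited table holds linear signal values per gene and region that the authors normalised to the upper quartile (Q3), per the file headers. The build is mm10, per the submitters' processing notes. Of the deposited values, 99.9821% were whole multiples of 1 read's worth (tolerance 0.02), so reads were recovered for an edgeR test chosen after seeing the data. Values were taken as log2(value + 1) and averaged over the regions of an animal and type. Fold changes are on this scale, which understates changes of low genes. A gene was tested if it reached 1.5 times the negative probe in 10% of regions: 10188 genes passed, all 9 described here among them, and 654 did not. limma 3.58.1 (empirical Bayes with a trend, Benjamini-Hochberg over all genes tested, threshold 0.05) compared tau with control with slide as a covariate, and region types as differences within animals. edgeR 4.0.16 ran in R 4.3.3. The animal was the replicate, since regions of 1 animal share their source. Intervals are 95%. The method was tested on simulated data. For each gene, the 3 genes with the highest r were named. The genes and lists were chosen with earlier results of these data known.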

Additional observations from a re-analysis of the deposited data

How the results depend on the processing

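Of 24 estimates for the 9 genes whose interval left out 0, 4 of 598 values under alternatives had the opposite sign and 7 were called. Of the 84 others, 167 of 2045 had the opposite sign and 0 were called. The alternatives include fits without 1 animal and settings that cannot move some estimates, such as leaving out the filter on low values. These shares are therefore no measure of stability. The causes were not tested. Relative to the fibre reference genes the differences of Cacnb1 and Jph1 in normal fibres became 0.0818 and 0.0147 and the artery contrast of Ryr1 -0.14. With the negative probe as a covariate Cacnb1 in nerve bundle became 0.0905. Of the 9 genes, 1 was called in normal fibres relative to the fibre reference (Cacna2d1, 0.83, limma adjusted p = 0.021), 1 with labelled sex (Ryr1) and 2 in central nuclei under the stricter filter, which does not test Cacna2d1. Leaving out 1 animal gave 0 to 2 in central nuclei and 0 to 1 for the mean of 3 region types.

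Over all genes, the stricter filter called 448 in central nuclei, 92 around arteries, 270 for the mean of 3 region types, 1 between nerve bundle and normal fibres and 133 between artery and normal fibres. Quantile normalisation called 235 in central nuclei, 1 in nerve bundle, 1 for the mean, 38 between artery and normal fibres and 1 in the artery interaction. The fibre reference scaling called 3240 in normal fibres, 90 in central nuclei, 33 for the mean, 19 between nerve bundle and normal fibres, and 266 and 377 in the nerve bundle and artery interactions. Subtracting the negative probe called 175 in central nuclei and 1 in each of nerve bundle and artery against normal fibres. With 1 region per animal, 97 were called in central nuclei and 1 for artery against normal fibres. Labelled sex gave 51 in normal fibres and 1 in central nuclei, a slide covariate 48 for artery against normal fibres, and a pseudocount of 5 gave 1 in the artery interaction. Both alternatives chosen after seeing the data moved counts: edgeR called 195 in central nuclei and 4 for nerve bundle against normal fibres, and without regions of a Q3 count up to 30 the nerve bundle and artery contrasts with normal fibres each called 1. Without the replicate block, that is without pairing regions by animal, those contrasts called 0 and 0, and 0 of the 9 genes.

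Leaving out 1 animal gave 0 to 23 in normal fibres, 0 to 373 in central nuclei, 0 to 1 in nerve bundle, 0 to 372 for the mean, 0 to 3 and 10 to 224 for nerve bundle and artery against normal fibres, and 0 to 1 in the artery interaction. Of the genes described, Cacna2d1 had the lowest counts, at 3 to 149 per region, and its signal was at background. On slide 2, of the highest median total count, its median was 0.803 times the negative probe.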
